A study of Mus musculus with 3 samples.

Results

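The 5 dopamine receptor genes of the mouse, Drd1, Drd2, Drd3, Drd4 and Drd5, were followed through single-nucleus RNA-seq of brain tissue labelled prefrontal cortex. They were chosen by name, with earlier results of these data known, and they are 5 of the 32285 genes in the count matrices. Dopamine acts through 2 families of G protein-coupled receptors. D1-like receptors (Drd1 and Drd5) couple to stimulatory G proteins and raise cyclic AMP, whereas D2-like receptors (Drd2, Drd3 and Drd4) couple to inhibitory G proteins and lower it. In the striatum, Drd1 is known from the medium spiny neurons of the direct pathway and Drd2 from those of the indirect pathway and from cholinergic interneurons. In the cortex, receptor transcripts are much less abundant, and deep-layer pyramidal cells are a known site of Drd1.

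The study asked how loss of Nav1 (neuron navigator 1, a protein of growing neurites) alters the brain. There was 1 library for each of 3 groups of male mice aged 6 to 8 weeks. The C57BL/6 library pooled 5 wild-type mice, and the Nav1 KO library pooled 4 mice that carry a deletion at the end of exon 1 of Nav1, made by editing C57BL/6 embryos. The BTBR library came from the inbred strain BTBR T<+> Itpr3<tf>/J, for which the labels give no number of mice. Nuclei with and without the neuronal protein NeuN were sorted in set proportions before capture, so class shares reflect the sort. With 1 library per group no test between groups was possible, and strain or genotype cannot be told apart from library and pool. Every interval below is a 95% interval that covers counting error only.

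After removal of nuclei with fewer than 200 detected genes or with 10% or more mitochondrial counts, 14630 C57BL/6, 14056 Nav1 KO and 14777 BTBR nuclei remained, 43463 in all, with medians of 2074, 2754 and 2510 unique molecular identifiers (UMIs) per nucleus. The knocked-out gene itself gave levels of 345, 264 and 146 CPM (UMIs of a gene over all UMIs of the same nuclei, scaled to a fixed total) for Nav1 in C57BL/6, Nav1 KO and BTBR. These are tags of the transcript's end, which lies outside the deleted part of exon 1, so they do not check the labels. Pairs of libraries shared 55 to 66 cell barcodes. Nuclei were clustered with the receptor genes kept out of the variable genes, and clusters were named from marker lists that hold none of them. Although the tissue is labelled prefrontal cortex, the named classes included 1703 nuclei with the marker set of striatal medium spiny neurons, 1618 of olfactory bulb interneurons and 938 of the mitral or tufted cells of the bulb. The 10 medium spiny markers (Ppp1r1b, Rgs9, Pde10a and others) summed to 6525 to 7223 CPM in the striatal class and to 854 to 874 CPM in the layer 6 corticothalamic class, with no marker at 0 in either.

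In the gene models of mouse build mm10, Drd1 lies on the minus strand at chr13:54051183-54055705 and Drd2 on the plus strand at chr9:49340627-49408177. Drd3 lies on the plus strand at chr16:43754026-43822932, Drd4 on the plus strand at chr7:141292006-141296464 and Drd5 on the plus strand at chr5:38319367-38322518. An antisense gene, Gm26560, overlaps Drd5, and a miRNA gene, Gm25996, lies within Drd3.

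Drd1, the main D1-like receptor, was at its highest in the striatal medium spiny-like nuclei in all 3 libraries. The class held 929 C57BL/6, 285 Nav1 KO and 489 BTBR nuclei, in which 394, 193 and 193 Drd1 UMIs were counted. The levels were 226 CPM (interval 204 to 250), 252 CPM (218 to 291) and 174 CPM (150 to 201). The lowest of these exceeded the highest level of any other class that had at least 50 nuclei in a library. Below the striatal class the ranges of neighbouring classes over the libraries overlapped all the way down the order, from 34.6 to 60.04 CPM in layer 6 corticothalamic-like nuclei to 3.12 to 6.78 CPM in layer 2/3 intratelencephalic-like nuclei, so no further order was drawn between neighbours.

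Drd2, the main D2-like receptor and an autoreceptor of dopamine neurons, had the same leading class. The striatal medium spiny-like nuclei held 117, 42 and 55 Drd2 UMIs in C57BL/6, Nav1 KO and BTBR, or 67.2 CPM (55.5 to 80.5), 54.9 CPM (39.6 to 74.2) and 49.6 CPM (37.4 to 64.6). The next class by its pooled level, an unnamed cluster led by Ecel1, Tshz2 and Prkcd, ranged from 12.1 to 23.7 CPM. Its best neuronal list was that of cholinergic interneurons, at a median fold of 8.55. Cholinergic interneuron-like nuclei were later split from a set that included it, and their share in it was not counted. The range of this cluster overlapped that of an unnamed excitatory cluster, at 5.34 to 25.4 CPM, which was the higher of the pair in BTBR. In the 3 cortical excitatory classes of layers 2/3, 5 and 6, Drd2 stayed at or below 2.03 CPM.

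**Figure D1:**
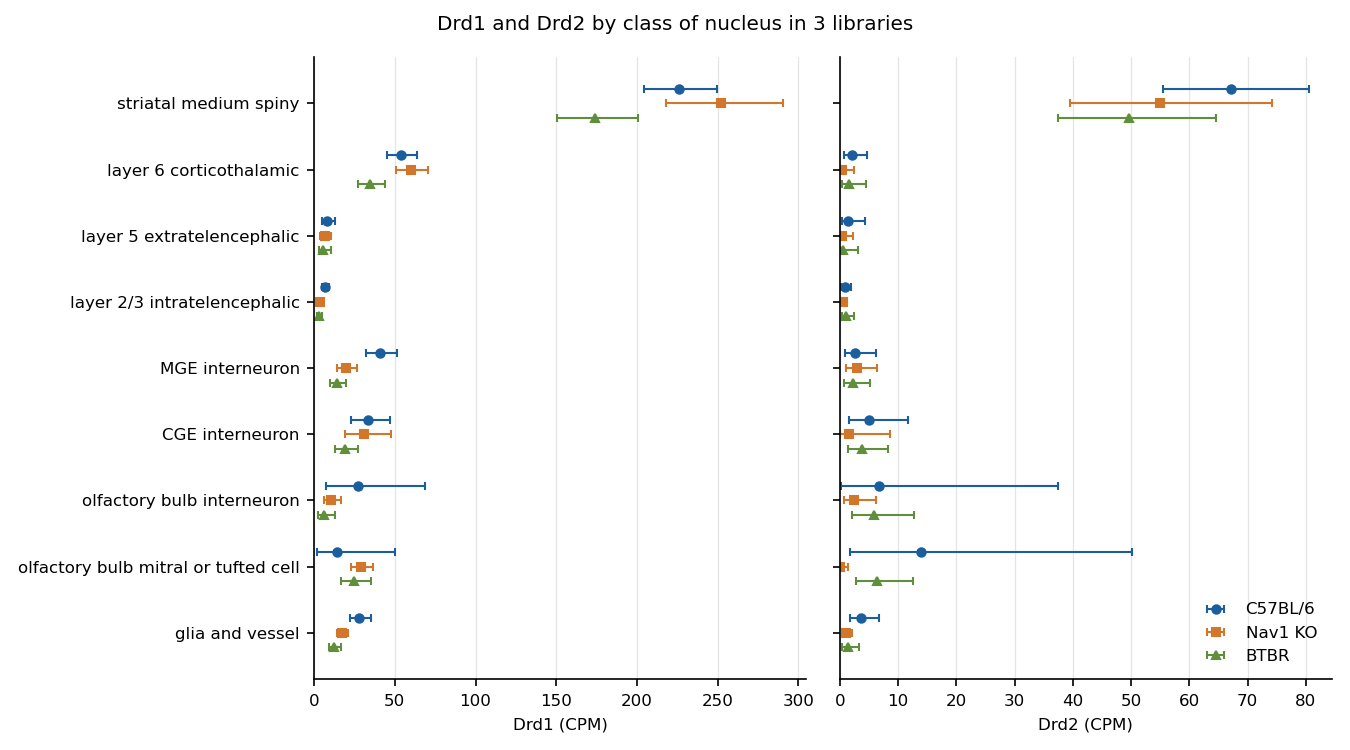
Levels of Drd1 (left) and Drd2 (right) in CPM, on linear axes, for 9 classes of nuclei in the C57BL/6 (circles), Nav1 KO (squares) and BTBR (triangles) libraries, with exact 95% Poisson intervals as bars. The striatal medium spiny row stands apart in both panels, at 174 to 252 CPM for Drd1 and 49.6 to 67.2 CPM for Drd2, while layer 6 corticothalamic nuclei hold 34.6 to 60.04 CPM of Drd1 and at most 2.03 CPM of Drd2.

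Against the layer 6 corticothalamic-like class, the ratio of Drd1 in the striatal class was 4.19 (3.43 to 5.14) in C57BL/6, 4.20 (3.37 to 5.26) in Nav1 KO and 5.03 (3.797 to 6.73) in BTBR. For Drd2 the ratio was 33.1 (13.8 to 104) in C57BL/6, 129 (21.9 to 5215) in Nav1 KO and 32.5 (10.6 to 162) in BTBR, on 5, 1 and 3 UMIs in the layer 6 class. Drd1 and Drd2, with at least 40 counts over both classes together, were at least 2-fold higher in the striatal class in every library. Of all genes tested, 6.69%, 6.09% and 6.55% were. Drd2 reached the 40 counts only through the striatal class, so for Drd2 the filter fixed the direction in advance. The other 3 receptors had too few counts for this comparison. The Drd1 ratio ran from 1.73 to 8.24 over the other clusterings and settings, always above 1.

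Free RNA puts UMIs into nuclei that do not transcribe a gene, and glia and vessel cells together served as a rough measure of it. Meningeal fibroblast-like nuclei were counted in this group, as 4.72% of all nuclei beside 14.3% for the whole group. Its mix differed between libraries, with olfactory ensheathing glia-like nuclei at 0.144%, 2.84% and 0.643% of C57BL/6, Nav1 KO and BTBR nuclei. The classes of the group also differed, from 8.94 CPM of Drd1 in astrocyte-like to 30.6 CPM in microglia-like nuclei, libraries pooled. In all 6213 glia and vessel nuclei Drd1 stood at 28.0, 17.0 and 12.2 CPM in C57BL/6, Nav1 KO and BTBR, and Drd2 at 3.64, 0.992 and 1.39 CPM. The striatal class exceeded this level 8.08-fold (6.31 to 10.5), 14.8-fold (11.6 to 19.0) and 14.2-fold (10.2 to 20.2) for Drd1. When each nucleus was thinned to 1000 UMIs, 18.6% of 1552 striatal nuclei (median depth before thinning 2024 UMIs) carried a Drd1 UMI, against 1.48% of 4260 glia and vessel nuclei (median 1870 UMIs). Without thinning the shares were 29.4% and 2.90%. For Drd2 the thinned shares were 4.77% and 0.258%, and the unthinned shares 10.1% and 0.322%.

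The striatal class was then divided by marker lists of the direct pathway (Tac1, Pdyn, Isl1 and 4 others) and the indirect pathway (Penk, Adora2a, Gpr6 and 3 others). Of 14 sub-clusters, 4 with 449 nuclei favoured the direct list at least 2-fold (D1-type) and 3 with 417 nuclei favoured the indirect list at least 2-fold (D2-type). The other 7 sub-clusters, with 837 nuclei, were left unsplit. The setting of this division was chosen after seeing the data, as the one that split the most nuclei by these lists.

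The receptors followed the lists. In D1-type nuclei, Drd1 reached 367 CPM (311 to 429) in C57BL/6, 427 CPM (352 to 513) in Nav1 KO and 278 CPM (220 to 348) in BTBR. In D2-type nuclei it was 67.4 CPM (44.8 to 97.5), 31.4 CPM (10.2 to 73.3) and 64.0 CPM (29.2 to 121), and the 2 types did not overlap. The ratio of D1-type over D2-type was 5.44 (3.62 to 8.45), 13.6 (5.66 to 42.7) and 4.35 (2.18 to 9.87). Drd1 was thus among the 1.3%, 2.43% and 3.29% of genes tested that were at least 2-fold higher in D1-type nuclei of C57BL/6, Nav1 KO and BTBR.

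Drd2 ran the other way, at 147 CPM (112 to 189), 182 CPM (122 to 262) and 142 CPM (86.8 to 220) in D2-type nuclei and at 9.52, 7.55 and 10.8 CPM in D1-type nuclei. On 4, 2 and 3 UMIs in the D1-type nuclei, the ratio of D2-type over D1-type was 15.4 (5.73 to 58.4) in C57BL/6, 24.1 (6.10 to 208) in Nav1 KO and 13.1 (3.89 to 68.9) in BTBR. In C57BL/6, where Drd2 reached 40 counts, it was at least 2-fold higher in D2-type nuclei, as were 0.608% of genes tested. Drd2 reached them only through D2-type nuclei, so the filter fixed its direction in advance. In Nav1 KO and BTBR it fell below 40 counts, with 0.912% and 1.1% of genes past that fold. The unsplit nuclei lay between the types for both receptors, at 155 to 234 CPM of Drd1 and 32.3 to 57.3 CPM of Drd2.

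**Figure D2:**
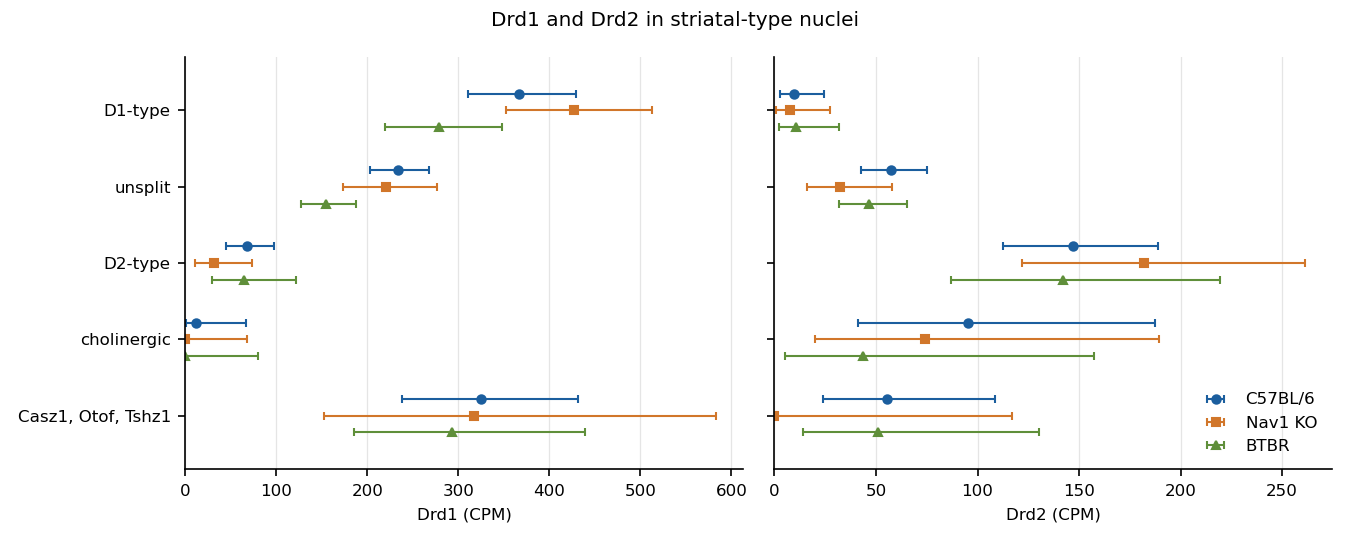
Levels of Drd1 (left) and Drd2 (right) in CPM, on linear axes with exact 95% Poisson intervals, in D1-type, unsplit and D2-type striatal nuclei, in cholinergic interneuron-like nuclei and in a sub-cluster led by Casz1, Otof and Tshz1, for each library. Drd1 is at 278 CPM or more in D1-type and at 67.4 CPM or less in D2-type nuclei, and Drd2 is at 142 CPM or more in D2-type and at 10.8 CPM or less in D1-type nuclei.

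The strength of this contrast depended on 1 sub-cluster and on how the nuclei were grouped. A shallow D2-type sub-cluster of 181 nuclei (median 1114 UMIs) held Drd1 and Drd2 at nearly equal levels, 134 and 139 CPM. The other D2-type sub-clusters held 20.3 and 39.0 CPM of Drd1 beside 159 and 162 CPM of Drd2. Without the shallow sub-cluster, an alternative added after seeing the data, the C57BL/6 ratio of Drd1 rose to 24.3. When each library was clustered alone, the ratio dropped to 1.23 in C57BL/6 and 1.12 in BTBR.

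Single nuclei rarely held both receptors. Of 288 thinned striatal nuclei with a Drd1 UMI, 1 also had a Drd2 UMI, or 0.347% (0.00879 to 1.92), against 5.78% (4.55 to 7.21) of the striatal nuclei without Drd1. Unthinned, 7 of 501 nuclei had both, or 1.40% (0.564 to 2.86), against 13.7% (11.8 to 15.8) of the others. The direction was the same in each library, with 1.58%, 1.85% and 0.714% of nuclei with Drd1 against 13.8%, 15.8% and 12.6% of the rest in C57BL/6, Nav1 KO and BTBR.

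**Figure D3:**
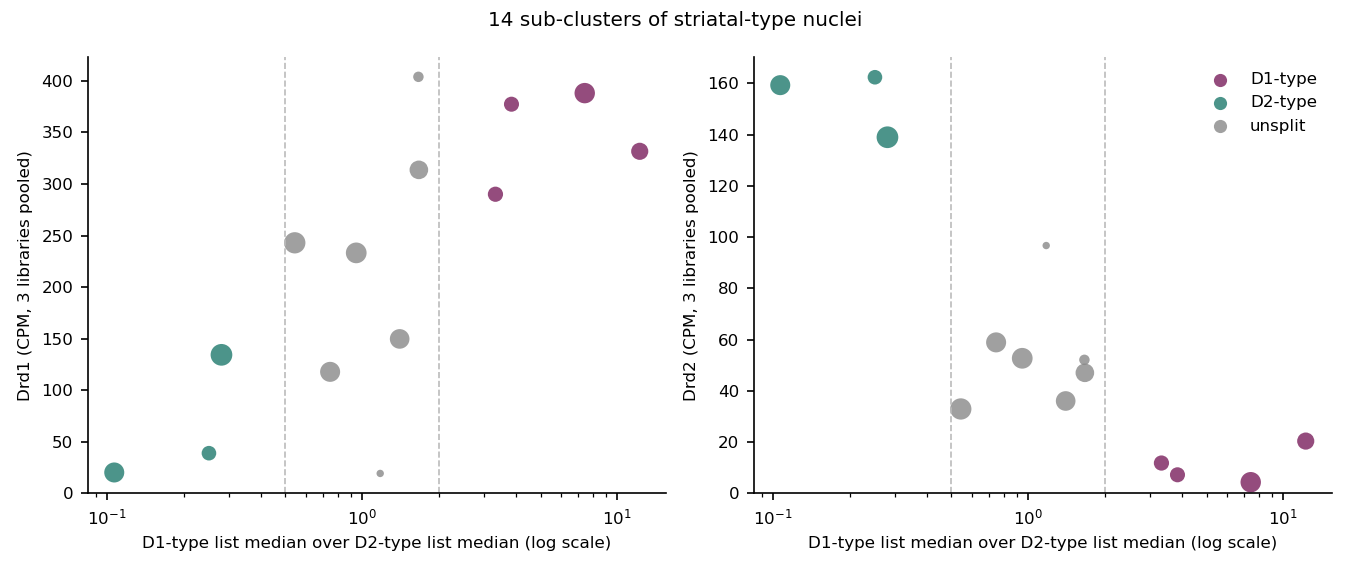
The 14 sub-clusters of striatal nuclei, each a circle with its area in proportion to its number of nuclei (21 to 181), by the ratio of the D1-type to the D2-type list median (log axis) and by the pooled level of Drd1 (left) or Drd2 (right) in CPM. Dashed lines mark the 2-fold limits. The 4 D1-type sub-clusters lie at 290 to 388 CPM of Drd1 and at most 20.4 CPM of Drd2, and the 3 D2-type sub-clusters at 139 to 162 CPM of Drd2.

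Several smaller groups around the striatal class differed in their receptors. A sub-cluster of 133 nuclei led by Adarb2, Casz1, Otof and Tshz1 had Drd1 at 324, 317 and 292 CPM in C57BL/6, Nav1 KO and BTBR, within the D1-type range, although the marker lists left it unsplit. Its Drd2 was 55.2 CPM (23.8 to 109) in C57BL/6 and 50.9 CPM (13.9 to 130) in BTBR, above the D1-type levels of 9.52 and 10.8 CPM, with 0 UMIs in the 16 Nav1 KO nuclei. Cholinergic interneuron-like nuclei, identified by Chat (the enzyme of acetylcholine synthesis) and Slc5a7 (the choline transporter), were few, with 21, 9 and 10 nuclei. They held 8, 4 and 2 Drd2 UMIs, or 95.1, 74.0 and 43.5 CPM. Pooled, Drd2 there was 76.0 CPM (41.6 to 128), or 0.494 (0.262 to 0.865) of the D2-type level, with 1 Drd1 UMI in all 40 nuclei. Thinned to 1000 UMIs, 4 of 39 nuclei had a Drd2 UMI, or 10.3% (2.87 to 24.2), against 0.258% of glia and vessel nuclei, at median depths of 3953 and 1870 UMIs. Thinned to 500 UMIs it was 1 of 40 nuclei, or 2.5% (0.0633 to 13.2), against 0.0966%. Unthinned, the shares were 32.5% (18.6 to 49.1) and 0.322%.

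Between libraries, the receptors of the striatal class stayed within 1.5-fold. The Drd1 ratio of Nav1 KO over C57BL/6 was 1.12 (0.935 to 1.33), and the Drd2 ratio was 0.818 (0.561 to 1.17). Of the 2 receptors tested, 0 passed 1.5-fold, as did 16.7% of all genes. For BTBR over C57BL/6 the ratios were 0.770 (0.645 to 0.917) for Drd1 and 0.739 (0.526 to 1.03) for Drd2, again 0 of 2 past 1.5-fold, with 20.7% of all genes past it. At resolution 2.0 of the clustering, BTBR over C57BL/6 turned to 1.14 for Drd1 and to 1.55 for Drd2. With nuclei gated on marker UMIs, Nav1 KO over C57BL/6 was 0.370 for Drd2. In D1-type nuclei the Drd1 ratio was 1.16 (0.905 to 1.49) for Nav1 KO and 0.759 (0.570 to 1.00) for BTBR, and in D2-type nuclei the Drd2 ratio was 1.24 (0.768 to 1.96) and 0.967 (0.553 to 1.63).

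Over all kept nuclei the ratios between libraries were lower than in the class, although for Drd2 in BTBR the intervals overlapped. Drd1 was at 40.3 CPM in C57BL/6, 25.1 CPM in Nav1 KO and 22.5 CPM in BTBR, a ratio of 0.623 (0.578 to 0.671) for Nav1 KO and 0.558 (0.516 to 0.603) for BTBR. Drd2 was at 8.01, 2.88 and 5.13 CPM, a ratio of 0.360 (0.294 to 0.440) and 0.640 (0.540 to 0.759). The striatal class made up 6.35% of C57BL/6, 2.03% of Nav1 KO and 3.31% of BTBR nuclei and held 25.3%, 15.1% and 17.5% of the Drd1 UMIs and 37.7%, 28.6% and 21.9% of the Drd2 UMIs. The level in glia and vessel nuclei moved in the same direction, with a Drd1 ratio of 0.608 (0.448 to 0.828) for Nav1 KO and 0.437 (0.295 to 0.641) for BTBR. The part of the differing class mix of this group in these ratios was not tested. In a whole-library value, fewer nuclei of a type and less RNA per nucleus cannot be told apart.

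Among the named excitatory classes of the cortex, Drd1 was highest in layer 6. Layer 6 corticothalamic-like nuclei, named from Foxp2, Tle4, Hs3st4 and other markers, had 54.0 CPM (45.2 to 64.0) in C57BL/6, 60.04 CPM (50.5 to 70.8) in Nav1 KO and 34.6 CPM (26.9 to 43.9) in BTBR. Layer 2/3 intratelencephalic-like nuclei had 6.78, 3.83 and 3.12 CPM, below the glia and vessel level of the same libraries. The ratio of layer 6 over layer 2/3 was 7.97 (5.56 to 11.6), 15.7 (10.6 to 23.9) and 11.1 (6.44 to 20.1), and that of layer 6 over glia and vessel nuclei was 1.93 (1.45 to 2.59), 3.53 (2.71 to 4.59) and 2.83 (1.91 to 4.23). Layer 5 extratelencephalic-like nuclei, at 5.71 to 7.93 CPM, overlapped layer 2/3 in their range.

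Within the deep layers the highest level belonged to layer 6b-like nuclei, the remnant of the embryonic subplate, marked by Ccn2, Cplx3 and Nxph4. The deep nuclei were clustered on their own for this, a step chosen after seeing the data, which separated 218 C57BL/6, 218 Nav1 KO and 109 BTBR nuclei. They held 77, 85 and 34 Drd1 UMIs, or 137 CPM (108 to 172), 140 CPM (112 to 173) and 109 CPM (75.7 to 153). Over the 3 libraries the layer 6b-like nuclei held 4.97% of the Drd1 UMIs and were 1.25% of the nuclei. For the remaining corticothalamic-like nuclei these shares were 3.73% and 4.74%. Their levels were 29.4 CPM (22.2 to 38.1), 32.1 CPM (24.3 to 41.7) and 21.1 CPM (14.7 to 29.4). Beside these stand the 28.0, 17.0 and 12.2 CPM of glia and vessel nuclei, which lay inside the interval in C57BL/6 and below it in Nav1 KO and BTBR. The ratio of layer 6b over the remaining layer 6 nuclei was 4.68 (3.27 to 6.72), 4.36 (3.07 to 6.22) and 5.17 (3.13 to 8.54). Drd1 was at least 2-fold higher in layer 6b in every library, as were 3.62%, 3.03% and 3.69% of genes tested in C57BL/6, Nav1 KO and BTBR. With nuclei gated on layer 6b markers instead, the ratio was 3.50 in C57BL/6, 2.64 in Nav1 KO and 1.38 in BTBR.

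The layer 6b level was 0.607 (0.469 to 0.777), 0.554 (0.424 to 0.719) and 0.627 (0.422 to 0.907) of the striatal level in C57BL/6, Nav1 KO and BTBR. Rgs9, a regulator of G protein signalling that is abundant in the striatum, was counted in the same nuclei. Layer 6b-like nuclei held 2.33, 1.98 and 4.86 Drd1 UMIs for each Rgs9 UMI, whereas striatal nuclei held 0.256, 0.294 and 0.178 and glia and vessel nuclei 0.367, 0.636 and 0.263. The part of free RNA in these ratios was not tested. Among nuclei thinned to 1000 UMIs, 14.4% (11.5 to 17.6) of 536 layer 6b-like nuclei had a Drd1 UMI, against 2.57% of the remaining layer 6 nuclei and 1.48% of glia and vessel nuclei, at median depths of 2523, 2436 and 1870 UMIs. Unthinned, the shares were 27.5%, 6.75% and 2.90%.

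**Figure D4:**
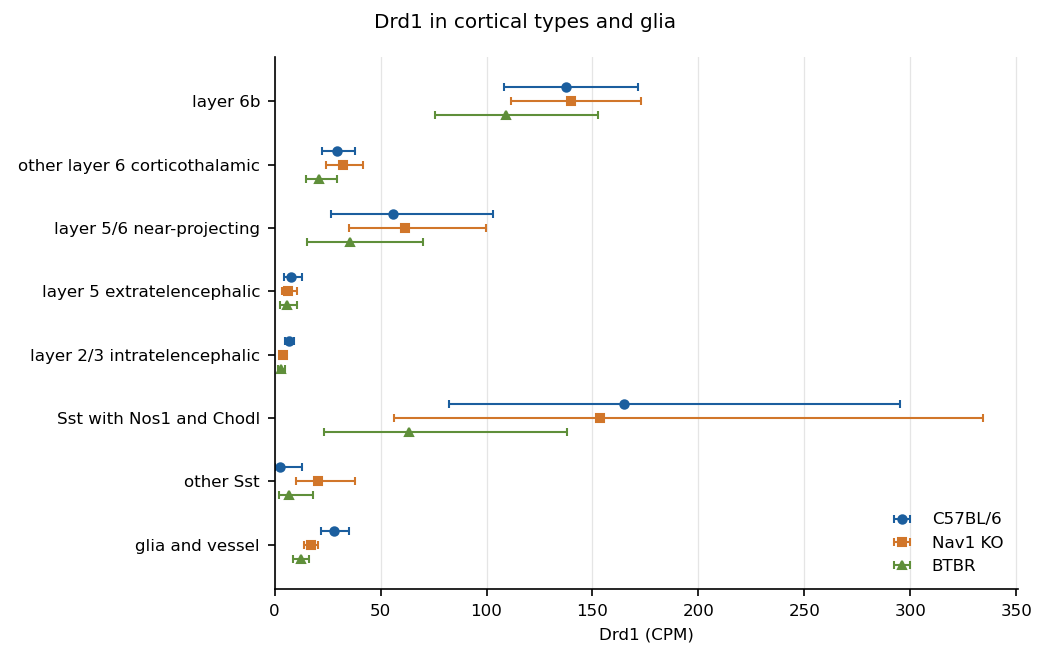
Drd1 in CPM, on a linear axis with exact 95% Poisson intervals, in 5 excitatory types, 2 groups of Sst interneurons and the glia and vessel nuclei of each library. Layer 6b lies at 109 to 140 CPM, above the other excitatory types, and the small Sst group with Nos1 and Chodl reaches 165 CPM in C57BL/6 with wide intervals.

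Other deep groups fell in between. Near-projecting-like nuclei of layers 5 and 6, marked by Tshz2 and Vwc2l, had Drd1 at 55.9, 61.3 and 35.6 CPM in C57BL/6, Nav1 KO and BTBR, on 10, 16 and 8 UMIs. An unnamed excitatory cluster led by Rxfp1, Oprk1 and Sulf1 had 40.7, 42.2 and 39.0 CPM, and one led by Nr4a2, Col11a1 and Gnb4 had 56.5, 66.7 and 38.6 CPM. Leaving layer 6b out of the corticothalamic class raised the ratio of the striatal class over it to 7.70, 7.86 and 8.24.

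Between libraries, Drd1 in the corticothalamic-like class was 1.11 (0.871 to 1.42) for Nav1 KO over C57BL/6 and 0.641 (0.471 to 0.865) for BTBR over C57BL/6. Drd1 was the only receptor with enough counts there. It passed 1.5-fold in BTBR and not in Nav1 KO, as did 16.6% and 13.7% of genes tested. Layer 6b-like nuclei numbered 109 in BTBR beside 598 other corticothalamic-like nuclei, and 218 beside 862 in C57BL/6, and the part of this mix in the ratio was not tested. Within layer 6b alone the BTBR ratio was 0.796 (0.515 to 1.21) and the Nav1 KO ratio 1.02 (0.740 to 1.41).

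Among cortical interneurons, Drd1 stood at or moderately above the glia and vessel level in most groups. MGE interneuron-like nuclei (the Lhx6 lineage of Sst and Pvalb cells) had 40.9 CPM in C57BL/6, 19.5 CPM in Nav1 KO and 13.96 CPM in BTBR, or 1.46 (1.05 to 2.03), 1.15 (0.774 to 1.67) and 1.14 (0.696 to 1.85) times the glia and vessel level. CGE interneuron-like nuclei (the Adarb2 lineage of Vip and Lamp5 cells) had 33.3, 30.8 and 19.0 CPM, beside 28.0, 17.0 and 12.2 CPM in glia and vessel nuclei. Within them, Lamp5 interneuron-like nuclei held 2 Drd1 UMIs in each of C57BL/6 and Nav1 KO, or 11.7 CPM (1.41 to 42.2) and 16.7 CPM (2.03 to 60.4), and 14 in 131 BTBR nuclei, or 54.9 CPM (30.04 to 92.2). The intervals overlapped between libraries, and in BTBR the interval lay above the glia and vessel level. Drd2 in both classes was at or below 5.05 CPM. In C57BL/6, Sst and Pvalb interneuron-like nuclei held 12 and 15 Drd1 UMIs, beside 76 in the MGE class. Vip and Lamp5 interneuron-like nuclei held 10 and 2, beside 33 in the CGE class. Unnamed sub-clusters of the inhibitory nuclei with high UMI counts (526 nuclei, median 4992, and 290 nuclei, median 4880.5) had 24.7 and 25.1 CPM of Drd1 pooled. The number of nuclei captured together in these sub-clusters was not tested.

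A sub-cluster of 70 nuclei was led by Nos1, Chodl and Npy, known as markers of the long-range Sst interneuron. Its Drd1 level stood at 165 CPM (82.3 to 295) in 27 C57BL/6 nuclei, 154 CPM (56.4 to 334) in 12 Nav1 KO nuclei and 63.3 CPM (23.2 to 138) in 31 BTBR nuclei. The other Sst nuclei had 2.33, 20.6 and 6.98 CPM, and the groups did not overlap. Pooled over libraries, 23 UMIs gave 115 CPM (72.7 to 172) against 10.1 CPM (5.65 to 16.6) from 15 UMIs, a ratio of 11.4 (5.68 to 23.4). This group was singled out after its values were seen. Thinned to 1000 UMIs, 9 of 69 nuclei, or 13.04% (6.14 to 23.3), had a Drd1 UMI, against 0.713% of the other Sst nuclei.

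Drd5, the second D1-like receptor, was rare and had its highest levels in deep cortex. There were 41, 69 and 60 UMIs in C57BL/6, Nav1 KO and BTBR, or 1.06, 1.35 and 1.23 CPM over all kept nuclei. The corticothalamic-like class held 12, 14 and 7 of them, or 4.87 CPM (2.52 to 8.51), 5.96 CPM (3.26 to 10.0) and 3.56 CPM (1.43 to 7.34), and layer 2/3 held 3, 4 and 2. Over the 3 libraries the class held 19.4% of the Drd5 UMIs and 5.98% of the nuclei, and its pooled level was 10.5 (4.92 to 24.995) times that of layer 2/3. Layer 6b-like nuclei had 8.79 CPM (4.68 to 15.0) from 13 UMIs and the other corticothalamic-like nuclei 3.77 CPM (2.30 to 5.82) from 20 UMIs, a ratio of 2.33 (1.07 to 4.93). The striatal class, first for Drd1, had 1 Drd5 UMI in all, or 0.277 CPM, a ratio to layer 6 of 0.0568 (0.00140 to 0.339). The glia and vessel nuclei had 6 UMIs, or 0.484 CPM, and an unnamed excitatory cluster of high UMI counts had 21.

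Drd4, a D2-like receptor known from the cortex, had its largest share in upper layers. Of its 100 UMIs, 35 lay in layer 2/3 intratelencephalic-like nuclei, which were 13.2% of the nuclei. Their levels were 1.36 CPM (0.585 to 2.67) in C57BL/6, 2.22 CPM (1.32 to 3.52) in Nav1 KO and 1.65 CPM (0.756 to 3.14) in BTBR. The corticothalamic-like class held 1 Drd4 UMI in all, so that layer 6 over layer 2/3 was 0.0820 (0.00202 to 0.488), the reverse of Drd5. Glia and vessel nuclei held 6 Drd4 UMIs (0.484 CPM), CGE interneuron-like nuclei 4 (1.24 CPM) and striatal nuclei 5 (1.38 CPM), and the intervals of the last pair overlapped that of layer 2/3. Over all kept nuclei Drd4 was at 0.620, 0.942 and 0.572 CPM, a ratio of 1.52 (0.912 to 2.59) for Nav1 KO and 0.923 (0.516 to 1.66) for BTBR over C57BL/6.

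**Figure D5:**
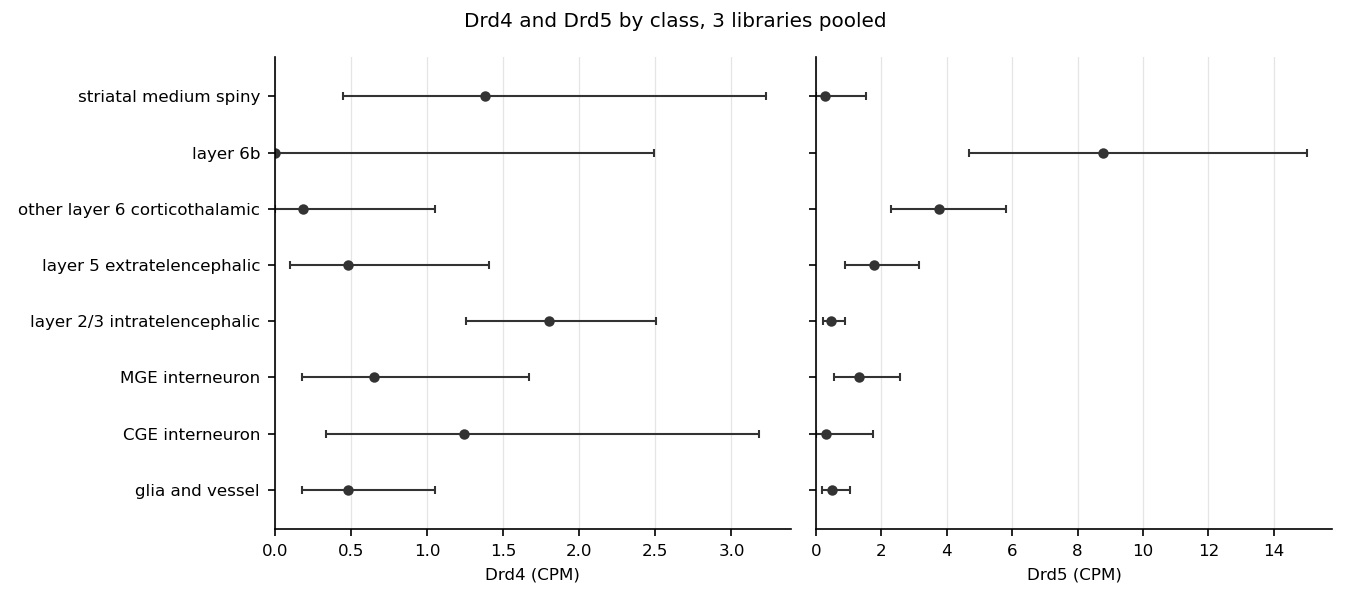
Drd4 (left) and Drd5 (right) in CPM over the 3 libraries pooled, on linear axes with exact 95% Poisson intervals, in 8 groups of nuclei. Drd4 stands at 1.80 CPM in layer 2/3 and 0.188 CPM in layer 6 without layer 6b, while Drd5 stands at 0.463 CPM in layer 2/3 and 8.79 CPM in layer 6b.

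Drd3, the D2-like receptor of the ventral striatum and the islands of Calleja, gave 7 UMIs in C57BL/6, 3 in Nav1 KO and 6 in BTBR, or 0.181, 0.0589 and 0.123 CPM. The 16 UMIs were scattered, with 2 in striatal nuclei, 2 in mitral or tufted cell-like nuclei, 2 in glia and vessel nuclei and 7 in a pair of unnamed excitatory clusters of high UMI counts. No order of classes was detectable at this depth. In layer 2/3, 0 UMIs were counted, which allows up to 0.154 CPM.

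The signalling partners of the receptors were compared next. In the list of 11 genes of D1-like signalling, 6 were at least 2-fold higher in the striatal than in the layer 6 corticothalamic-like class in C57BL/6 and Nav1 KO and 7 in BTBR. Of these, 5 (Adcy5, Gng7, Ppp1r1b, Pde10a, Pde1b) are markers that named the class, so that their direction was fixed by the naming. Of the other 6 genes, 1 was past 2-fold in C57BL/6 and Nav1 KO and 2 in BTBR, beside 6.69%, 6.09% and 6.55% of all genes tested. Gnal, the stimulatory G protein subunit of striatal D1 receptors, was not used to name the class. It stood at 580, 549 and 509 CPM in striatal nuclei and 78.4, 58.3 and 50.4 CPM in layer 6, a ratio of 7.40, 9.42 and 10.1. Gnas, the more widespread stimulatory subunit, had ratios of 0.448, 0.483 and 0.337. Prkar2b, a regulatory subunit of protein kinase A, was past 2-fold in BTBR.

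In the list of 13 genes of D2-like signalling, 2 were past 2-fold in C57BL/6 and BTBR and 3 in Nav1 KO, with medians of 0.718, 0.842 and 0.987 in C57BL/6, BTBR and Nav1 KO. Rgs9 had ratios of 17.0, 18.0 and 22.4 and Rgs4 of 2.25, 2.14 and 2.66 in C57BL/6, Nav1 KO and BTBR. Rgs9 is a marker of the class, and both proteins shorten G protein signals. None of the 5 genes of receptor regulation that were tested (receptor kinases, an arrestin and Ncs1) was past 2-fold. Of the striatal receptors and peptides, 8 of 9 were in C57BL/6, 7 of 7 in Nav1 KO and 8 of 9 in BTBR.

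Between D1-type and D2-type nuclei, the D1-like list was counted at 2-fold, with 10, 8 and 8 genes tested in C57BL/6, Nav1 KO and BTBR. In each library 0 were higher in D1-type nuclei, beside 1.3%, 2.43% and 3.29% of all genes tested. In D2-type nuclei 1, 1 and 0 were higher, beside 0.608%, 0.912% and 1.1% of all genes tested. Gnas was higher in D2-type nuclei, at 154, 182 and 142 CPM against 47.6, 52.9 and 18.1 CPM in C57BL/6, Nav1 KO and BTBR, and had too few counts to be tested in BTBR. Gnas was among the 10 leading genes of the shallow D2-type sub-cluster of 181 nuclei and not of the other D2-type sub-clusters. Its level without the shallow sub-cluster was not counted. Tac1 (the substance P precursor, 445 against 118 CPM in C57BL/6) and Penk (the enkephalin precursor, 1708 against 95.2 CPM in D2-type and D1-type nuclei) were both used to make the division.

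Between libraries, some of these partners passed 1.5-fold in the striatal class. For Nav1 KO over C57BL/6, 3 of 11 genes of D1-like signalling did, beside 16.7% of all genes tested. Gng7, a G protein subunit partner of Gnal, was at 1.62, and Adcy1 and Prkaca were at 0.516 and 0.501. Of D2-like signalling 0 of 7 did, and of the striatal receptors and peptides 1 of 10, as Adora2a, the adenosine receptor of D2-type neurons, was at 0.641. For BTBR over C57BL/6, where 20.7% of all genes tested passed, 2 of 11 genes of D1-like signalling did, with Gng7 at 1.64 and Prkar2b at 1.96. In the same comparison 3 of 12 genes of D2-like signalling were higher (Kcnj3 at 1.70, Kcnj6 at 1.57, Akt1 at 1.57), and 2 of 5 genes of receptor regulation, Grk2 and Grk3, were at 2.92 and 1.57. Of the striatal receptors and peptides, 4 of 9 passed, with Adora2a, Gpr6 and Cnr1 lower at 0.590, 0.538 and 0.549 and Pdyn, the dynorphin precursor, higher at 1.54. Qdpr, the synthesis gene tested, was at 1.73. D1-type and D2-type nuclei numbered 215 and 263 in C57BL/6, 99 and 77 in Nav1 KO, and 135 and 77 in BTBR. The indirect-pathway list, which holds Adora2a and Gpr6, summed to 1074, 964 and 706 CPM in the striatal class of C57BL/6, Nav1 KO and BTBR. In D2-type nuclei it summed to 2201, 2380 and 2025 CPM. The part of this mix in the striatal-class ratios was not tested.

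Th and Slc6a3, genes of dopamine synthesis and transport, were higher in olfactory bulb than in striatal nuclei. Th, the rate-limiting enzyme of dopamine synthesis, was at 60.5, 138 and 143 CPM in olfactory bulb interneuron-like nuclei of C57BL/6, Nav1 KO and BTBR, a class known to hold dopaminergic cells, and at 1.66 CPM in pooled striatal nuclei. Th is a marker in the list that named the bulb class, so its direction was fixed by the naming. Slc6a3 was not used to name a class. Slc6a3, the dopamine transporter, had 35 of its 75 UMIs in the same bulb class. These bulb nuclei themselves had little receptor RNA, with 26.9, 10.3 and 5.86 CPM of Drd1 and 6.73, 2.43 and 5.86 CPM of Drd2 (1, 4 and 6 UMIs).

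Across 75 points, each a class in 1 library with at least 50 nuclei, the pattern of Drd1 was compared with that of 14215 genes by Pearson's r of log2(CPM + 1). Points share libraries, depth and free RNA, so these values are descriptions. The nearest genes to Drd1 were Rgs9 (0.757), Oprk1 (0.698), Dcc (0.689), Strn (0.665) and Epb41 (0.660). Among those nearest to Drd2 were Penk (0.711), Ric8b (0.711), Ccdc187 (0.690) and Adcy5 (0.689). Drd1 and Drd2 themselves correlated at 0.522. Oprk1, the kappa opioid receptor, was highest not in the striatal class but in the Nr4a2 and Gnb4 cluster, at 403 CPM in C57BL/6.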

How the data were processed

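Single-nucleus libraries were made with droplet-based 3 prime capture. The files deposited by the authors hold raw UMI counts per gene and nucleus, made with Cell Ranger 6.0.0 against mm10 per the submitters' processing notes. The members and gene lists were chosen with earlier results of these data known. The filter removed nuclei that had fewer than 200 genes, or 10% or more of their counts from mitochondrial genes. This leaves the C57BL/6 and Nav1 KO numbers that the series text states, while its BTBR number is that of all 15238 barcodes. The libraries were merged without integration and clustered in Seurat 5.3.0 (R 4.3.3) with 2000 variable genes, 30 principal components, 20 neighbours and resolution 1.0, in place of the 10 components and resolution 0.3 of the study, because layers and types had to be told apart. The study settings were an alternative. A cluster was named where at least 3 markers of a list, and the list's median, were 2-fold above the other nuclei, with 1 marker among its 10 leading genes and a margin of 1.5 over the next list. The rebuilt names may differ from those of the study. Scrublet (scanpy 1.11.5) called 2 doublets in all, so it did not work here, and no nucleus was removed as a doublet. Counts were summed per class and library and given as CPM with exact Poisson intervals, shares with exact Clopper-Pearson intervals, and ratios with exact binomial intervals, with a count of 0 given the limit of 3 counts. No test across genes was possible with 1 library per group, so genes past a fold were counted among those with at least 40 counts on both sides together. All 5 receptors and the genes of the pathway lists were named by rule, beside the 5 nearest genes, but some genes of these lists are not reported here. The counting and ratio steps were tested on simulated data.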

Additional observations from a re-analysis of the deposited data

Results flagged for a closer look

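Receptor UMIs were also present in the nuclei that the filter on detected genes and mitochondrial counts removed, which entered no comparison. The 772 C57BL/6 nuclei removed held 29 Drd1 UMIs (27.5 CPM) and 12 Drd2 UMIs (11.4 CPM), the 567 Nav1 KO nuclei 21 Drd1 UMIs (18.1 CPM) and 4 Drd2 UMIs (3.45 CPM), and the 461 BTBR nuclei 4 Drd1 UMIs (4.43 CPM). Each of these counts is above the 3 that a count of 0 allows. With 1 library per group, no sample could be compared with others of its group.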

How the results depend on the processing

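No paired analysis was possible because each group has 1 library. Of 289 alternative values, 208 stayed within counting error of the values above, 80 moved beyond it and 1 turned in direction, and the cause was not tested. A ratio counts as turned only where its own interval excluded 1, so Drd1 of Nav1 KO and Drd2 of BTBR over C57BL/6, whose intervals held 1 and which also passed to the other side of 1 below, count as moved. Values below are in the order C57BL/6, Nav1 KO and BTBR where 3 are given. With the 10 components and resolution 0.3 of the study, the striatal class had 123, 171 and 114 CPM of Drd1 and 35.7 and 37.7 CPM of Drd2 in C57BL/6 and Nav1 KO, the Drd1 ratio to layer 6 was 2.55, 3.08 and 2.97, Nav1 KO over C57BL/6 was 1.38 for Drd1, and BTBR over C57BL/6 was 0.924 for Drd1 and 1.19 for Drd2. At resolution 2.0, Drd1 was 113, 103 and 128 CPM, Drd2 30.7 and 20.5 CPM in C57BL/6 and Nav1 KO, the ratio to layer 6 2.08, 1.73 and 3.78, Nav1 KO over C57BL/6 0.915 for Drd1, and BTBR over C57BL/6 turned to 1.14 for Drd1, with 1.55 for Drd2. With each library clustered alone, Nav1 KO had 197 CPM of Drd1 and 38.5 CPM of Drd2 and a Drd1 ratio of 0.842 over C57BL/6, layer 6 of C57BL/6 had 33.7 CPM of Drd1 and a striatal ratio of 6.95, Drd1 in D1-type over D2-type nuclei was 1.23 in C57BL/6 and 1.12 in BTBR, and Drd2 in D2-type over D1-type nuclei was 3.64 and 2.54. Without BTBR in the clustering, Drd1 in D1-type over D2-type nuclei was 3.42 in C57BL/6 and 4.63 in Nav1 KO, and Drd2 the other way was 4.69 in Nav1 KO. With the receptors allowed among the variable genes, the Drd1 ratio was 11.1 in C57BL/6 and 13.2 in BTBR. With another seed, C57BL/6 had ratios of 3.14 for Drd1 and 5.68 for Drd2.

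With nuclei gated on marker UMIs, striatal Drd1 was 151, 143 and 115 CPM, Drd2 43.6, 16.1 and 33.0 CPM with Nav1 KO over C57BL/6 at 0.370, layer 6 Drd1 42.5 and 35.2 CPM in C57BL/6 and Nav1 KO, the ratio to layer 6 3.44 in BTBR, and Drd1 in D1-type over D2-type nuclei 37.7 in C57BL/6. With Malat1 and mitochondrial counts left out of the total, striatal Drd1 was 311, 369 and 234 CPM, Drd2 92.4, 80.3 and 66.6 CPM, and layer 6 Drd1 70.2, 83.8 and 46.0 CPM. The next 2 alternatives were added after seeing the data. Without layer 6b the ratio to layer 6 was 7.70, 7.86 and 8.24, and without the shallow D2-type sub-cluster the D1-type ratio of C57BL/6 was 24.3. Shares with a UMI for 500 UMIs and unthinned were 9.86% and 29.4% for Drd1 in striatal nuclei, 2.77% and 11.1% in layer 6, 0.821% and 2.90% in glia and vessel nuclei, and 2.99% and 10.1% for Drd2 in striatal nuclei, with 0.0966% for Drd2 in glia at 500 UMIs. Genes past 1.5-fold in the striatal class numbered 1284 for Nav1 KO and 1728 for BTBR, 436 and 731 with at least 100 counts and 4899 and 5552 with no filter. In layer 6 they numbered 1364 and 1628, 642 and 790, and 4421 and 4829. Depth limits Drd3, Drd4 and Drd5 most, with 16, 100 and 170 UMIs in all.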

Other observations

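A large part of the receptor UMIs lay in clusters that no marker list named. A cluster of 2170 nuclei with a median of 5496 UMIs, with Rgs9, Penk and the layer 6 marker Syt6 among its leading genes, held 22.5%, 24.1% and 6.45% of the Drd1 UMIs and 27.1%, 29.9% and 12.7% of the Drd2 UMIs of C57BL/6, Nav1 KO and BTBR. Its Drd1 level was 60.3, 37.4 and 56.4 CPM and its Drd2 level 14.4, 5.34 and 25.4 CPM. A cluster with 1080 of its 1126 nuclei in BTBR (median 6659 UMIs) held 22.7% of the Drd1 and 30.7% of the Drd2 UMIs of that library, at 27.3 and 8.41 CPM. The number of nuclei captured together in these deep clusters was not tested.

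An unnamed cluster of 787 nuclei led by Ecel1, Tshz2 and Prkcd had Drd2 at 23.7, 16.2 and 12.1 CPM in C57BL/6, Nav1 KO and BTBR, the highest after the striatal class by pooled level, beside Drd1 at 39.6, 35.7 and 45.7 CPM and 7 of the 170 Drd5 UMIs. It was clustered again with the inhibitory nuclei, so its UMIs can be counted again in the types found there. Pooled Drd2 was 1.51 CPM in the near-projecting-like type and 76.0 CPM in the cholinergic interneuron-like type. In the same set, a sub-cluster of 461 nuclei led by Prkcd and Col9a3, which are also leading genes of the cluster, had 17.5 CPM. How many nuclei of the cluster lay in this sub-cluster was not counted. Mitral or tufted cell-like nuclei had Drd1 at 29.0 CPM (23.0 to 36.2) in Nav1 KO and 24.7 CPM (16.8 to 35.1) in BTBR. Microglia-like nuclei had 38.3, 32.0 and 23.6 CPM of Drd1 from 13, 15 and 11 UMIs, which lay in 8, 8 and 6 nuclei.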
